A study of Mus musculus with 6 samples.

Results

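The kappa variable segments of the mouse spleen are described here. They were taken as every locus of the deposited table whose gene name starts with Igkv, counted once per locus, which gave 162 of the 44794 named loci. They carried 158 symbols in 20 families, the family being the number after Igkv. The spleens came from mice of the autoimmune-prone line B6.Sle1b, a C57BL/6 line with a lupus susceptibility interval (3 libraries), and from Sle1b.IFNγR-/- mice, the same background with a disrupted interferon-γ receptor (3 libraries). Every mouse in both groups had been given imiquimod, which activates TLR7 (a sensor of single-stranded RNA), 3 times a week over 4 weeks, and no untreated group was among the samples. The labels name neither the receptor chain that was disrupted nor the way it was done, and they do not state that each library is a separate mouse, so the spread between libraries may be partly technical. The study asked how interferon-γ acts on autoreactive B cells as they become antibody-forming or germinal centre cells under TLR7 stimulation. RNA came from whole spleen tissue, so fewer cells of a type and less RNA per cell cannot be told apart.

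A kappa light chain is made from 1 variable (Igkv), 1 joining (Igkj) and the constant (Igkc) segment, brought together in developing B cells by RAG-mediated recombination. Because each mature B cell usually transcribes a single rearranged light chain, the mix of Igkv transcripts in a spleen reflects which segments its B cells carry and how strongly each cell transcribes them. Antibody-forming cells transcribe immunoglobulin genes far more strongly than resting B cells, so a few large plasmablast clones can dominate the mix in bulk RNA. The segments lie in both orientations over a long stretch of mouse chromosome 6, and many of them are pseudogenes.

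The values are fragment counts per locus that the authors scaled between libraries, called scaled counts below. The libraries held between 4394300 and 6349824 fragments in all, and the Igkv loci took 0.00758% to 0.0572% of the values. B6.Sle1b replicate 1 stood apart from the other 5 libraries. In it 26.96% of the values fell in named loci, against 17.5% to 19.95% in the others, and erythroid marker genes summed to 2118 scaled counts, against 156 to 699. The spleen label was met by the pan-B cell list (10 of 10 members with a mean of at least 10) and the red pulp macrophage list (8 of 8 members).

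Neighbouring kappa segments resemble each other, and this bears on every value for a single segment. Among 101 segments with an annotated coding V exon (the exon that holds most of the variable domain), the exon matched its nearest relative over a median of 93.96% of its bases, with a range of 67.4% to 98.99%. The longest stretch shared with any other segment had a median of 82 bases. It was longest for Igkv8-16 and Igkv8-23-1, which share 275 bases. The sources used here do not say how fragments that fit more than 1 segment were divided. The ends of the V exons of 4 pairs are shown because the results below turn on these segments. They come from GENCODE release M21 transcripts on build GRCm38, each shows the last 120 bases of the coding V exon 5′ to 3′, and the capitals mark bases that differ from the other member of the pair.
Igkv17-127 (chr6:67861540-67861659, plus strand): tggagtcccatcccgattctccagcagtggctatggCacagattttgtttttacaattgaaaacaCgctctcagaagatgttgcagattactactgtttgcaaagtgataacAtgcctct
Igkv17-121 (chr6:68037199-68037318, plus strand): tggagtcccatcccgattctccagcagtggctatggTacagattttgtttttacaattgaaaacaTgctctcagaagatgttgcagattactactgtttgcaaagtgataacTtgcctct
Igkv12-46 (chr6:69764523-69764642, minus strand): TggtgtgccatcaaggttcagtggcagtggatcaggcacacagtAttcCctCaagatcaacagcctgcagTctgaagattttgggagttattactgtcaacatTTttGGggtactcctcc
Igkv12-44 (chr6:69814631-69814750, minus strand): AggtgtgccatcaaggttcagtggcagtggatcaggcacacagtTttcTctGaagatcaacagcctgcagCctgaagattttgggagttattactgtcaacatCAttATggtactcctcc
Igkv1-110 (chr6:68271148-68271267, plus strand): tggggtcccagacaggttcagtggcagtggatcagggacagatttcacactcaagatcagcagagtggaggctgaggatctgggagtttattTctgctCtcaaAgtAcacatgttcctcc
Igkv1-117 (chr6:68121708-68121827, plus strand): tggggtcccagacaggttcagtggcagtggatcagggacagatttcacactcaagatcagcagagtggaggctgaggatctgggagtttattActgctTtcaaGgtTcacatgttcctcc
Igkv3-10 (chr6:70573111-70573230, plus strand): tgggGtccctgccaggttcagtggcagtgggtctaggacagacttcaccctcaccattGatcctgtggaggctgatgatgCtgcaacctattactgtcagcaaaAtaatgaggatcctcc
Igkv3-5 (chr6:70663776-70663895, plus strand): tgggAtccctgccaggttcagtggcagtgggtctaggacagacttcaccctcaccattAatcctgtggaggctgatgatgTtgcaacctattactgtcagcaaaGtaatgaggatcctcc
The whole V exons of these pairs were 97.99% identical for Igkv17-127 and Igkv17-121 (6 mismatches in 298 bases), 94.6% for Igkv12-46 and Igkv12-44 (16 in 298), 96.8% for Igkv1-110 and Igkv1-117 (10 in 313) and 98.1% for Igkv3-10 and Igkv3-5 (6 in 310). The capitals of all 4 pairs fall in part near the end of the exon, which encodes the start of the third hypervariable loop.

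The kappa signal as a whole was highest in B6.Sle1b replicate 1, next highest in B6.Sle1b replicate 3, and near level in the other 4 libraries. The scaled Igkv sum was 3289, 419 and 631 in B6.Sle1b replicates 1 to 3 and 435, 400 and 413 in Sle1b.IFNγR-/- replicates 1 to 3. The groups overlapped, and replicate 1 of B6.Sle1b held 7.16 times the mean of the other 5 libraries. As a share of all named values the sums were 0.212%, 0.0458% and 0.0610% in B6.Sle1b against 0.0435%, 0.0384% and 0.0398% in Sle1b.IFNγR-/-. On this scale every B6.Sle1b library lay above every Sle1b.IFNγR-/- library, by a small margin for B6.Sle1b replicate 2. The fragments behind the sums numbered 3228, 509 and 673 in B6.Sle1b against 498, 356 and 345 in Sle1b.IFNγR-/-, so that a count of 0 for a segment allows a share of the Igkv sum (3 fragments of the total) of up to 0.0929% in B6.Sle1b replicate 1 and of 0.446% to 0.870% elsewhere. Such limits, and the intervals below, cover counting error only.

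Igkc, the constant segment that every kappa transcript shares (chr6:70726435-70726966, plus strand), differed more between the groups than the Igkv sum did. Igkc stood at 9267, 677 and 1097 scaled counts in B6.Sle1b against 424, 357 and 461 in Sle1b.IFNγR-/-, and the groups did not overlap. Of the 19227 named loci whose mean reached 10, 5.19% had scaled counts that were lower in Sle1b.IFNγR-/- without overlap. The log2 difference of Igkc was -2.21 (SE 0.68), and its adjusted p from limma (Benjamini-Hochberg) was 0.99976. Igkv signal per Igkc signal was 0.355, 0.618 and 0.575 in B6.Sle1b against 1.03, 1.12 and 0.895 in Sle1b.IFNγR-/-, so that this ratio was higher in all 3 Sle1b.IFNγR-/- libraries than in any B6.Sle1b library.

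The Igkv loci fell into 2 kinds that behaved differently, a split made after the values were seen. In 24 loci the table listed at least 1 transcript that the authors' Cufflinks run had assembled, beside or in place of annotated ones, and the other 138 held annotated transcripts only. The loci with an assembled transcript summed to 855, 287 and 296 scaled counts in B6.Sle1b against 299, 267 and 282 in Sle1b.IFNγR-/-. Apart from B6.Sle1b replicate 1 they lay within a narrow band, from 267 to 299. The loci of annotated transcripts only summed to 2434, 132 and 335 in B6.Sle1b against 136, 134 and 131 in Sle1b.IFNγR-/-. These moved with Igkc instead, at 0.263, 0.194 and 0.305 of the Igkc value in B6.Sle1b against 0.322, 0.374 and 0.283 in Sle1b.IFNγR-/-, with overlapping groups. The loci with an assembled transcript therefore made up 26.0%, 68.6% and 47.0% of the Igkv sum in B6.Sle1b against 68.6%, 66.6% and 68.4% in Sle1b.IFNγR-/-. What else the assembled transcripts cover was not tested, and shares are given below over both sets where they differ.

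**Figure D1:**
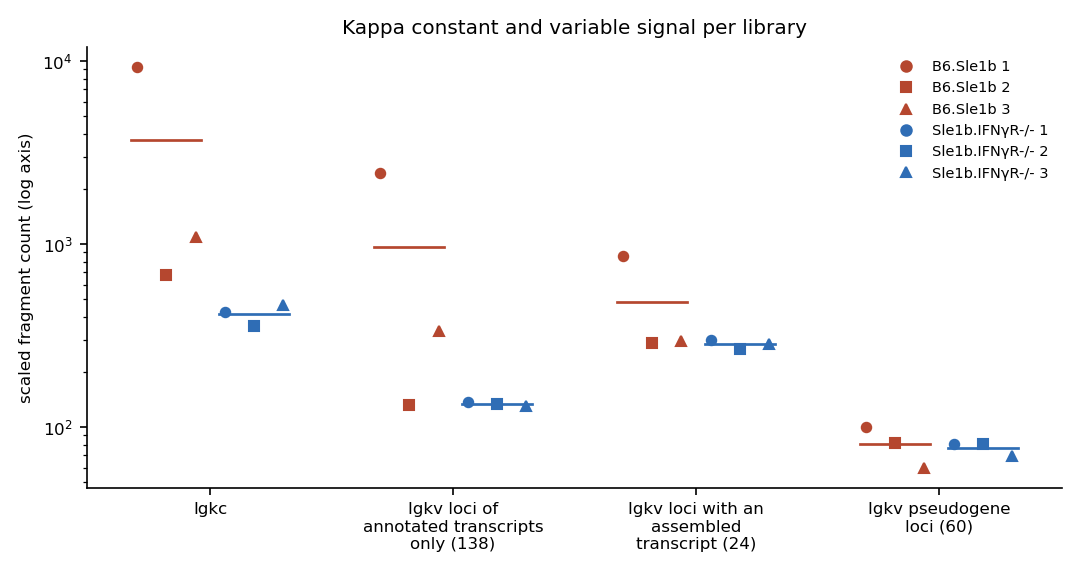
Scaled fragment counts (log axis) of Igkc, of the 138 Igkv loci of annotated transcripts only, of the 24 Igkv loci with an assembled transcript and of the 60 Igkv pseudogene loci, which are also part of the 2 preceding sets. Each point is a library and each line a group mean of 3. B6.Sle1b replicate 1 is highest in all 4 columns, and the loci with an assembled transcript lie between 267 and 299 in the other 5 libraries.

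Of the 162 loci, 124 had a value above 0 in at least 1 library, 24 in every library and 38 in none. The number of loci above 0 was 96, 67 and 77 in B6.Sle1b against 61, 51 and 55 in Sle1b.IFNγR-/-, a count that depends on depth. The 12 segments with the largest mean share held 47.3% of the Igkv sum on average, and 10 of the 12 were loci with an assembled transcript. The exceptions were Igkv17-127 and Igkv1-110. By annotation 98 of the 162 were variable genes, 60 pseudogenes and 2 held transcripts of both kinds. The symbols are those of the deposited table, and for 8 loci GENCODE gives the same transcripts another name. Among these are Igkv8-23-1, there Gm43218, and the locus with signal called Igkv4-56, there Igkv4-83.

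No single segment led in all libraries. Igkv17-127 led in B6.Sle1b replicate 1 with 10.5% of the Igkv sum. Igkv6-23 (chr6:70260409-70260955, minus strand) led in B6.Sle1b replicate 2 with 8.64%, and Igkv3-10 in B6.Sle1b replicate 3 with 6.39%. In Sle1b.IFNγR-/- replicates 1 to 3 the leaders were Igkv6-23 with 9.45%, Igkv8-23-1 with 8.14% and Igkv1-122 with 5.80%. Over loci of annotated transcripts only, Igkv17-127 led in B6.Sle1b replicates 1 and 3 (14.1% and 10.4%) and Igkv3-5 in replicate 2 (9.38%). Igkv1-110 led in Sle1b.IFNγR-/- replicates 1 and 2 (16.7% and 11.8%) and its close relative Igkv1-117 in replicate 3 (13.8%).

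**Figure D2:**
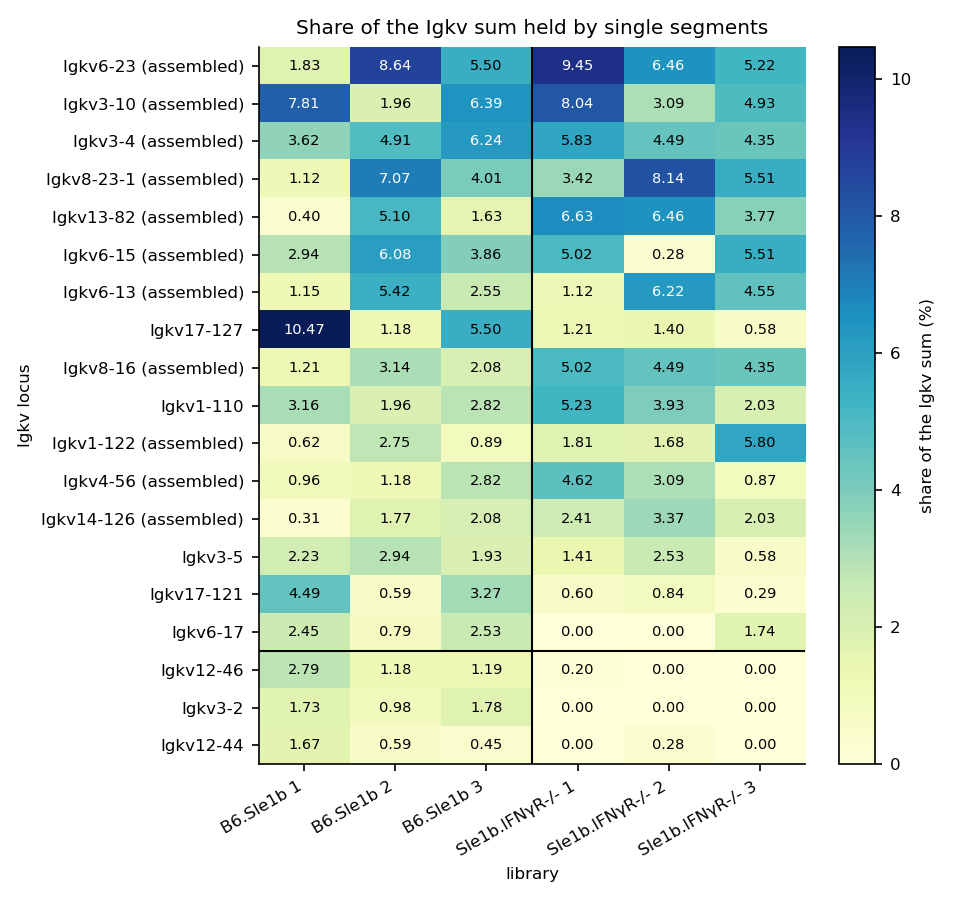
Share of the Igkv sum (%) of single segments (rows) in each library (columns), B6.Sle1b left and Sle1b.IFNγR-/- right of the vertical line. Rows above the horizontal line are the 16 named segments in order of mean share, and the 3 rows under it are segments singled out after their values were seen because their groups do not overlap. Igkv17-127 reaches 10.47% in B6.Sle1b replicate 1 and is under 1.5% in B6.Sle1b replicate 2 and in all 3 Sle1b.IFNγR-/- libraries.

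Igkv17-127 varied most between B6.Sle1b libraries. It had 344, 4.93 and 34.7 scaled counts in B6.Sle1b against 5.25, 5.62 and 2.40 in Sle1b.IFNγR-/-. Its shares of the Igkv sum were 10.5% (95% exact Clopper-Pearson interval 9.44% to 11.6%), 1.18% (0.434% to 2.55%) and 5.50% (3.90% to 7.50%) in B6.Sle1b against 1.21%, 1.40% and 0.580% in Sle1b.IFNγR-/-. B6.Sle1b replicate 2 lay inside the Sle1b.IFNγR-/- range, while B6.Sle1b replicates 1 and 3 lay above it with intervals clear of the highest Sle1b.IFNγR-/- share. The log2 difference in level was -3.01 (SE 1.07), with an unadjusted limma p of 0.0146 and a Benjamini-Hochberg adjusted p of 0.99976. Without B6.Sle1b replicate 2 the same limma fit gave -4.42 (SE 0.71) with a Benjamini-Hochberg adjusted p of 0.0109. Without B6.Sle1b replicate 1 it gave -1.49 (SE 1.10) with an unadjusted limma p of 0.189, so that both the size of the difference and its call depend on which B6.Sle1b library is kept.

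Igkv17-121, whose V exon differs from that of Igkv17-127 at 6 bases, 3 of them in the printed stretch, was high and low in the same libraries. It had 148, 2.47 and 20.6 scaled counts in B6.Sle1b against 2.62, 3.37 and 1.198 in Sle1b.IFNγR-/-. Fragments of Igkv17-127 per fragment of Igkv17-121 numbered 2.33, 2.00 and 1.68 in B6.Sle1b against 2.00, 1.67 and 2.00 in Sle1b.IFNγR-/-. The ratio thus stayed within a narrow range while the counts ranged from 338 and 145 fragments in B6.Sle1b replicate 1 to 2 and 1 in Sle1b.IFNγR-/- replicate 3. Values of either segment alone are uncertain, because fragments could have been split between them. The Igkv1-110 and Igkv1-117 pair did not keep a ratio, with 102 and 64 fragments in B6.Sle1b replicate 1, 26 and 8 in Sle1b.IFNγR-/- replicate 1, 14 and 0 in replicate 2 and 7 and 15 in replicate 3. Neither did Igkv3-10 and Igkv3-5, whose ratio ran from 0.667 in B6.Sle1b replicate 2 to 8.50 in Sle1b.IFNγR-/- replicate 3.

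By family, Igkv6, Igkv3 and Igkv8 were the largest over all loci, with mean shares of 17.8%, 15.3% and 13.1% of the Igkv sum. They were followed by Igkv1 with 10.4% and Igkv4, the family with most loci (33), with 9.41%. Over loci of annotated transcripts only the order differed, with Igkv1 at 18.1%, Igkv3 at 10.9%, Igkv4 at 10.6% and Igkv17 at 9.61%. Igkv6 held 6.85% there and Igkv8 6.56%. Over all loci, the mean share was at least 1% in 14 families, and the groups did not overlap in 2 of them, 14.3%. For comparison, 2 of 8 heavy-chain variable (Ighv) families of that size did not overlap, 25%. The 2 Igkv families were Igkv12 and Igkv15.

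Igkv12 took a smaller share in every Sle1b.IFNγR-/- library. Its shares were 7.22%, 3.93% and 5.35% in B6.Sle1b against 1.41%, 1.40% and 1.74% in Sle1b.IFNγR-/-, a mean of 5.50% ± 1.65 against 1.52% ± 0.19 (SD, n = 3 each). The Igkv12 shares rested on 233, 20 and 36 fragments in B6.Sle1b and on 7, 5 and 6 in Sle1b.IFNγR-/-. The 95% Clopper-Pearson interval of B6.Sle1b replicate 2 (2.42% to 6.003%) overlapped those of all 3 Sle1b.IFNγR-/- libraries, whose upper bounds were 2.87%, 3.25% and 3.75%, so that counting error could cover the difference for this library. Over loci of annotated transcripts only, the family held 9.67%, 6.25% and 8.12% in B6.Sle1b against 2.56%, 0.840% and 2.75% in Sle1b.IFNγR-/-, again without overlap. The number of Igkv12 loci above 0 was 9, 4 and 5 in B6.Sle1b against 5, 2 and 3 in Sle1b.IFNγR-/-. By its name the family includes Igkv12-47, whose locus with signal matches Igkv13-84 most closely, at 96.98% of the V exon. Over loci of annotated transcripts only, that locus held 0.502%, 0% and 2.24% in B6.Sle1b against 0.641%, 0% and 1.83% in Sle1b.IFNγR-/-.

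Igkv15 had the higher shares in Sle1b.IFNγR-/-. Its shares were 2.08%, 2.36% and 1.34% in B6.Sle1b against 4.02%, 3.65% and 2.61% in Sle1b.IFNγR-/-, a mean of 1.92% ± 0.53 against 3.43% ± 0.73 (SD, n = 3 each). The 95% Clopper-Pearson intervals overlapped for every pair of a B6.Sle1b and a Sle1b.IFNγR-/- library (for example 1.61% to 2.63% in B6.Sle1b replicate 1 and 2.47% to 6.13% in Sle1b.IFNγR-/- replicate 1). Of its 5 loci 2 had any signal, Igkv15-103 and the pseudogene Igkv15-102. Igkv15-103 rested on 53, 4 and 4 fragments in B6.Sle1b and on 16, 10 and 4 in Sle1b.IFNγR-/-. In share of the Igkv sum Igkv15-103 alone overlapped between the groups. The separation of the family on that scale therefore also rests on Igkv15-102, a locus with an assembled transcript. Over loci of annotated transcripts only, Igkv15-103 was the sole Igkv15 segment with signal. It held 2.22%, 2.5% and 1.12% there in B6.Sle1b against 10.3%, 8.40% and 3.67% in Sle1b.IFNγR-/-. With 3 libraries a group, the smallest two-sided exact permutation p of a single value is 0.1, so no share can pass 0.05 on its own.

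**Figure D3:**
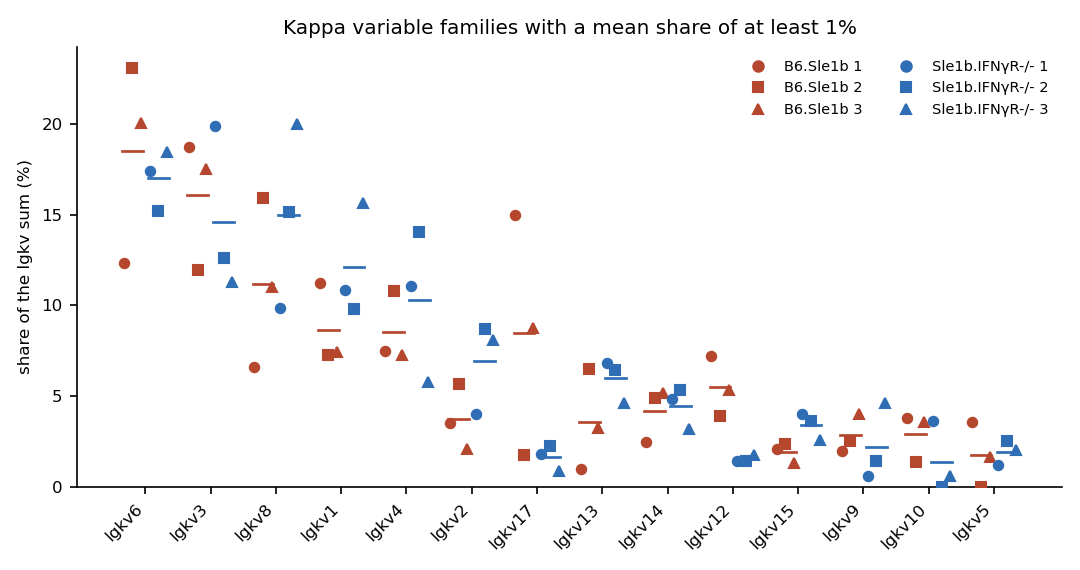
Share of the Igkv sum (%) of the 14 Igkv families with a mean share of at least 1%, in order of mean share. Each point is a library, each line the mean of a group of 3. The points of the 2 groups separate in Igkv12 (3.93% to 7.22% in B6.Sle1b, 1.40% to 1.74% in Sle1b.IFNγR-/-) and Igkv15, and overlap in the other 12 families.

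The other 12 families with a mean share of at least 1% overlapped between the groups. Igkv17, which holds Igkv17-127 and Igkv17-121, had 14.99%, 1.77% and 8.76% in B6.Sle1b against 1.81%, 2.25% and 0.870% in Sle1b.IFNγR-/-. As for its leading segment, B6.Sle1b replicate 2 lay inside the Sle1b.IFNγR-/- range. Igkv6 took 12.4%, 23.1% and 20.1% in B6.Sle1b against 17.4%, 15.2% and 18.5% in Sle1b.IFNγR-/-, and Igkv3 18.7%, 11.97% and 17.5% against 19.9%, 12.6% and 11.3%. Igkv8 took 6.63%, 15.9% and 11.0% in B6.Sle1b against 9.85%, 15.2% and 20.02% in Sle1b.IFNγR-/-. In Igkv6, Igkv3 and Igkv8 the spread within a group was wider than the difference between the group means. Igkv13, in which 17 of 18 loci are pseudogenes, took 0.960%, 6.48% and 3.27% in B6.Sle1b against 6.83%, 6.46% and 4.64% in Sle1b.IFNγR-/-. Of this, Igkv13-82 gave 0.403%, 5.10% and 1.63% in B6.Sle1b against 6.63%, 6.46% and 3.77% in Sle1b.IFNγR-/-.

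Igkv1 depended on which loci were counted. Over all loci it took 11.3%, 7.26% and 7.43% in B6.Sle1b against 10.9%, 9.83% and 15.7% in Sle1b.IFNγR-/-, with overlap. Over loci of annotated transcripts only it took 14.3%, 11.2% and 11.2% in B6.Sle1b against 27.6%, 15.1% and 29.4% in Sle1b.IFNγR-/-, without overlap. Igkv1-110 alone held 4.27%, 6.25% and 5.32% there in B6.Sle1b against 16.7%, 11.8% and 6.42% in Sle1b.IFNγR-/-, also without overlap, though B6.Sle1b replicate 2 and Sle1b.IFNγR-/- replicate 3 were nearly level.

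Among single segments, 30 of the 162 reached a mean of at least 10 scaled counts, and 15 would have done so without B6.Sle1b replicate 1, so that which segments could be compared rests largely on that library. In share of the Igkv sum, 3 of the 30 (10%) were lower in Sle1b.IFNγR-/- without overlap and 1 (3.33%) was higher. Of 39 Ighv segments at the same level, 0 (0%) were lower and 2 (5.13%) higher. Over all 124 Igkv segments with any signal the counts were 6 lower (4.84%) and 2 higher (1.61%), beside 2.67% lower and 2% higher of the 150 Ighv segments with any signal.

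The 3 with lower shares were singled out after their values were seen. Igkv12-46 had 91.7, 4.93 and 7.50 scaled counts in B6.Sle1b against 0.874, 0 and 0 in Sle1b.IFNγR-/-. These were 90, 6 and 8 fragments against 1, 0 and 0, and its shares were 2.79%, 1.18% and 1.19% against 0.201%, 0% and 0%. Igkv12-44, its near relative, had 54, 3 and 3 fragments in B6.Sle1b against 0, 1 and 0 in Sle1b.IFNγR-/-. Both members of the printed Igkv12 pair were therefore low in all 3 Sle1b.IFNγR-/- libraries, though in B6.Sle1b replicates 2 and 3 Igkv12-44 stood at no more than 3 fragments. Igkv3-2 had 56, 5 and 12 fragments in B6.Sle1b, shares of 1.73%, 0.982% and 1.78%, and 0 in every Sle1b.IFNγR-/- library. A count of 0 allows shares of up to 0.602%, 0.843% and 0.870% in those libraries by the limit of 3 fragments, and of up to 0.738%, 1.03% and 1.06% by the 95% Clopper-Pearson interval. The share in B6.Sle1b replicate 2 rests on 5 fragments, with an interval of 0.320% to 2.28%, which overlaps those of the Sle1b.IFNγR-/- libraries.

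Igkv8-16, a locus with an assembled transcript (chr6:70386672-70387252, minus strand), had a higher share in Sle1b.IFNγR-/-. Its shares were 1.21%, 3.14% and 2.08% in B6.Sle1b against 5.02%, 4.49% and 4.35% in Sle1b.IFNγR-/- (two-sided exact permutation p of 0.1, the smallest that 3 against 3 libraries allow). Its level was 39.7, 13.2 and 13.1 scaled counts in B6.Sle1b against 21.9, 18.0 and 18.0 in Sle1b.IFNγR-/-, which overlapped, with a log2 difference of 0.01 (SE 0.48). The difference in level was smaller than the spread between libraries, and its sign turned under 4 of the alternatives tried. The V exon of Igkv8-16 shares a stretch of 275 bases with that of Igkv8-23-1, which is 295 bases long. Values of either segment alone are uncertain, because fragments could have been split between them. The other named segments overlapped in share. Of the 3 tested segments with a higher level in Sle1b.IFNγR-/-, the smallest p belonged to Igkv13-82, a pseudogene locus with an assembled transcript (chr6:68979198-68979663, plus strand). It had 13.2, 21.4 and 10.3 scaled counts in B6.Sle1b against 28.9, 25.8 and 15.6 in Sle1b.IFNγR-/-, with overlap, and a log2 difference of 0.63 (SE 0.46).

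In the limma fit of scaled levels over the same 19227 loci, 0 loci (0%) passed a Benjamini-Hochberg adjusted p of 0.05, and so 0 of the 30 Igkv loci. At an unadjusted p under 0.05 there were 596 loci (3.1%), among them 7 Igkv loci. These were Igkv17-127, Igkv17-121, Igkv3-5, Igkv3-4, Igkv6-15, Igkv6-17 and Igkv12-46, with lower values in Sle1b.IFNγR-/- for each. The median log2 difference of the 30 loci was -1.06, beside -0.08 over all tested loci, and 27 of the 30 were highest in B6.Sle1b replicate 1. Without that library 15 Igkv loci were tested and their median was 0.05. The counts and medians over loci that passed the filter therefore rest on that library. The 17 tested loci of annotated transcripts only had a median of -2.24 and the 13 with an assembled transcript one of -0.46. All of the 17 were highest in B6.Sle1b replicate 1. Without that library, 2 loci of annotated transcripts only and 13 with an assembled transcript were tested, with medians of -0.62 and 0.05. The gap between -2.24 and -0.46 therefore also rests on that library.

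Several of the named segments show how far single libraries set the levels. Igkv6-15 had 96.8, 25.5 and 24.4 scaled counts in B6.Sle1b against 21.9, 1.12 and 22.8 in Sle1b.IFNγR-/-, which did not overlap but were near level apart from the highest and the lowest library. Igkv3-5 had 73.4, 12.3 and 12.2 in B6.Sle1b against 6.12, 10.1 and 2.40 in Sle1b.IFNγR-/-, also without overlap. Igkv6-17 had 80.5, 3.29 and 15.9 in B6.Sle1b against 0, 0 and 7.19 in Sle1b.IFNγR-/-, with overlap. Igkv3-10, the second-ranked segment by mean share, had 257, 8.22 and 40.3 in B6.Sle1b against 35.0, 12.4 and 20.4 in Sle1b.IFNγR-/-, and its log2 difference of -1.09 (SE 0.87) turned to 0.16 without B6.Sle1b replicate 1. Of the 30 tested Igkv loci, 5 were lower without overlap in level and 0 higher, beside 5.19% and 3.51% of all tested loci.

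Kappa usage was spread over more segments in B6.Sle1b than in Sle1b.IFNγR-/- by most of the measures taken. The effective number of segments (the inverse Simpson index, the number of equally used segments that would give the same concentration) was 29.8, 28.4 and 35.1 in B6.Sle1b against 23.8, 26.9 and 28.3 in Sle1b.IFNγR-/-. The groups nearly touched without overlap, and after correction for the number of fragments they overlapped, at 30.1, 30.02 and 37.0 against 25.0, 29.0 and 30.7. The number of segments expected in a draw of 345 fragments, the smallest Igkv total, was 68.1, 62.6 and 68.3 in B6.Sle1b against 55.9, 50.8 and 55.0 in Sle1b.IFNγR-/-, without overlap. The 10 leading segments held 45.7%, 50.6% and 44.0% in B6.Sle1b against 57.7%, 51.1% and 51.0% in Sle1b.IFNγR-/-, without overlap. The 5 leading segments held 30.8%, 32.3% and 27.6% against 35.2%, 31.8% and 27.6%, with overlap. The leading segment alone held 10.5%, 8.64% and 6.39% against 9.45%, 8.14% and 5.80%, also with overlap and with the higher mean in B6.Sle1b.

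Over loci of annotated transcripts only, the difference in effective number was wider. The effective number was 22.8, 29.0 and 25.7 in B6.Sle1b against 16.3, 17.3 and 17.8 in Sle1b.IFNγR-/-, and corrected for the number of fragments it was 23.0, 35.2 and 27.6 against 18.1, 20.1 and 21.1. A draw of 109 fragments was expected to hold 38.5, 40.9 and 38.7 segments in B6.Sle1b against 33.2, 27.6 and 33 in Sle1b.IFNγR-/-. The 10 leading segments held 51.5%, 45.6% and 51.3% in B6.Sle1b against 61.5%, 63.9% and 63.3% in Sle1b.IFNγR-/-. None of these 4 measures overlapped between the groups. The leading segment alone did overlap, at 14.1%, 9.38% and 10.4% in B6.Sle1b against 16.7%, 11.8% and 13.8% in Sle1b.IFNγR-/-. The fragments behind these measures numbered 2389, 160 and 357 in B6.Sle1b against 156, 119 and 109 in Sle1b.IFNγR-/-, so that B6.Sle1b replicate 2 and Sle1b.IFNγR-/- replicate 1 differed at like depth. As sums over the members these measures were given no test.

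The heavy-chain variable segments, measured in the same way, did not separate the groups. Their effective number over loci of annotated transcripts only was 32.0, 30.7 and 43.9 in B6.Sle1b against 32.3, 28.0 and 32.2 in Sle1b.IFNγR-/-. Their 10 leading segments held 44.5%, 45.1% and 35.2% against 39.0%, 46.3% and 44.2%. The difference between kappa and heavy chain was not tested.

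**Figure D4:**
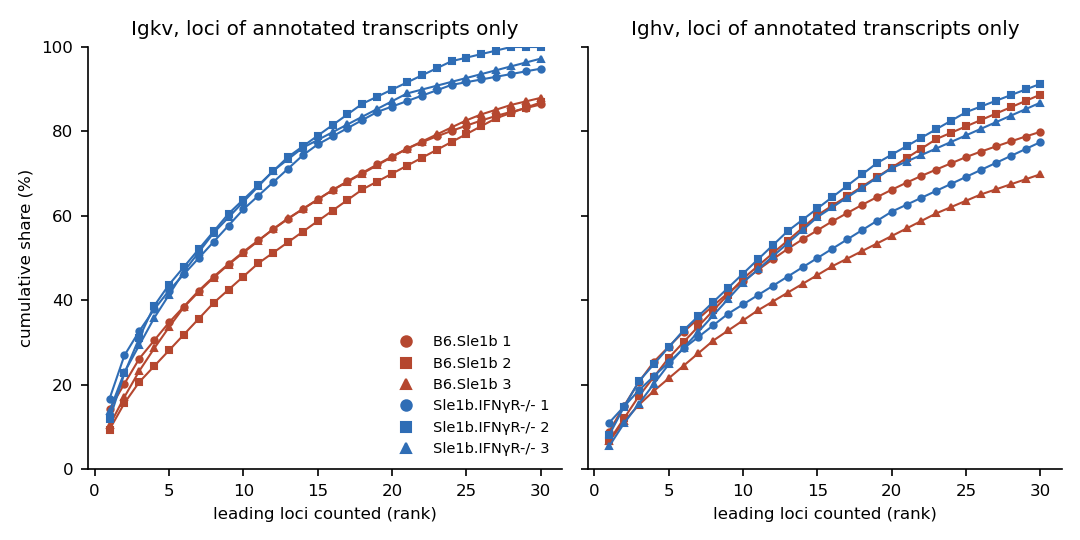
Cumulative share (%) of the Igkv sum (left) and the Ighv sum (right) over loci of annotated transcripts only, against the number of leading loci counted, ranked within each library. The 20 leading Igkv loci hold 70.0% to 74.0% in the 3 B6.Sle1b libraries and 85.9% to 89.9% in the 3 Sle1b.IFNγR-/- libraries, while the Ighv curves of the groups cross.

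Whole profiles did not set the genotypes apart. The Bray-Curtis distance between the share profiles of 2 libraries, which is 0 for equal shares and 1 for no segment in common, was 0.369 to 0.644 over the 9 pairs of libraries of different genotype. It was 0.397 to 0.592 within B6.Sle1b and 0.402 to 0.462 within Sle1b.IFNγR-/-. The nearest pair of all was B6.Sle1b replicate 2 and Sle1b.IFNγR-/- replicate 3, and the farthest B6.Sle1b replicate 1 and Sle1b.IFNγR-/- replicate 2. Over loci of annotated transcripts only, distances were 0.392 to 0.618 within B6.Sle1b, 0.548 to 0.768 within Sle1b.IFNγR-/- and 0.548 to 0.745 between genotypes, on far fewer fragments.

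Position along the locus was described next, since segments near Igkc and far from it are known to differ in their chance to recombine. The annotated loci lay between 22.3 kb and 3170 kb from Igkc on chromosome 6, 75 on the plus strand, like Igkc, and 86 on the minus strand. The 50 loci within 1 Mb of Igkc held 46.6%, 55.3% and 54.4% of the Igkv sum in B6.Sle1b against 49.2%, 46.9% and 52.7% in Sle1b.IFNγR-/-. The 58 loci between 1 and 2 Mb held 10.1%, 18.6% and 12.03% against 19.3%, 20.5% and 11.6%, and the 53 loci beyond 2 Mb held 43.0%, 24.3% and 31.5% against 29.1%, 29.2% and 33.7%. Over all loci, every zone overlapped between the groups, and in all 6 libraries the middle zone held least although it has the most loci. Plus-strand loci held 62.1%, 41.2% and 49.8% in B6.Sle1b against 53.5%, 47.5% and 49.9% in Sle1b.IFNγR-/-, also overlapping. Over loci of annotated transcripts only, the zone beyond 2 Mb held the most in all 6 libraries. It held 54.4%, 36.9% and 48.5% in B6.Sle1b against 69.9%, 54.6% and 49.5% in Sle1b.IFNγR-/-, with overlap. The zone within 1 Mb held 34.9%, 35.6% and 40.6% against 20.5%, 26.9% and 34.9%. There B6.Sle1b replicate 1 and Sle1b.IFNγR-/- replicate 3 were near level.

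**Figure D5:**
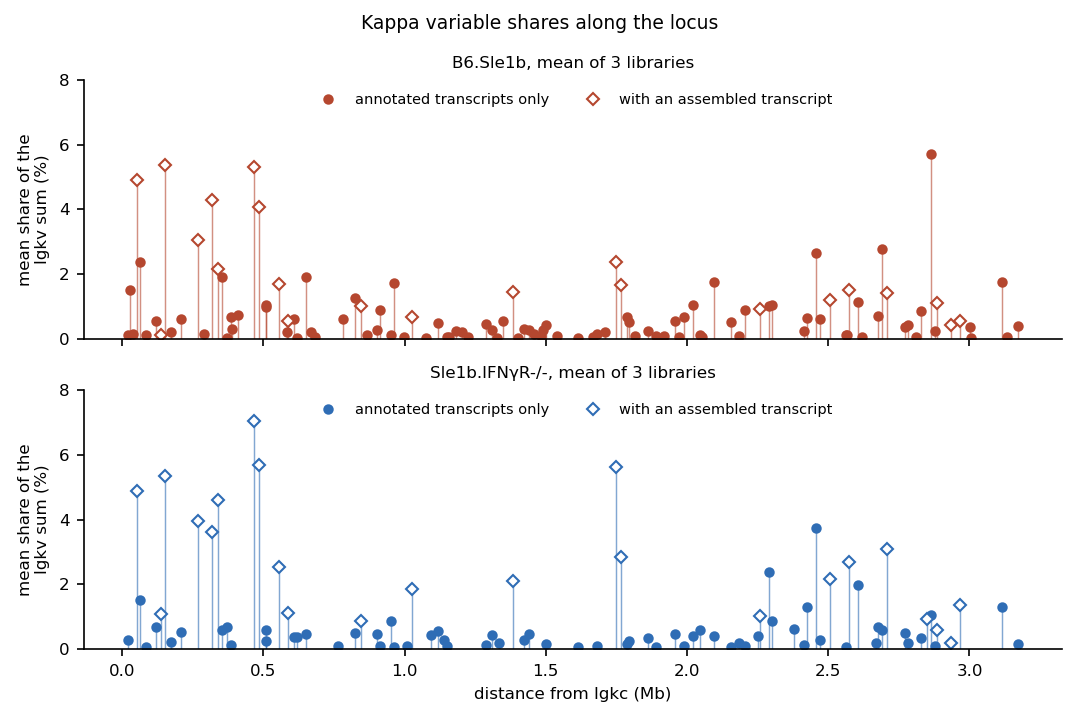
Mean share of the Igkv sum (%) of each segment with signal against its distance from Igkc (Mb), as the mean of 3 libraries of B6.Sle1b (top) and of Sle1b.IFNγR-/- (bottom). Filled points are loci of annotated transcripts only and open diamonds loci with an assembled transcript. In both groups the tallest points cluster within 0.5 Mb of Igkc, beyond 2 Mb, and at the assembled locus Igkv13-82 near 1.75 Mb. The tallest filled point is Igkv17-127 in the B6.Sle1b panel and Igkv1-110 in the Sle1b.IFNγR-/- panel.

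Pseudogene segments cannot encode a working light chain. Of 60 loci annotated as pseudogenes, 28 had any signal. They summed to 99.9, 82.2 and 59.998 scaled counts in B6.Sle1b against 80.4, 80.9 and 69.5 in Sle1b.IFNγR-/-, which overlapped. Unlike the sum of all Igkv loci, this sum was not far higher in B6.Sle1b replicate 1. Most of it came from the 7 pseudogenes with an assembled transcript, and the other pseudogenes summed to 4.79 to 20.4. The pseudogene share of the Igkv sum was 3.04%, 19.6% and 9.51% in B6.Sle1b against 18.5%, 20.2% and 16.8% in Sle1b.IFNγR-/-.

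The other genes of the light-chain pathway were read from the same fit. Of the lambda and kappa constant and joining genes, 6 were tested, 5 had lower values and 1 higher, and 0 passed. The joining segment locus of Igkj4 and Igkj5 had 91.7, 9.04 and 16.9 scaled counts in B6.Sle1b against 23.6, 21.4 and 19.2 in Sle1b.IFNγR-/-, so that it did not share the lower values of Igkc, and Igkj1, Igkj2 and Igkj3 were at 0 in every library. Of 11 tested genes for V(D)J recombination and end joining, 9 were lower, 2 higher and 0 passed, with a median log2 difference of -0.17. Of 16 factors of the kappa promoter and enhancers, 12 were lower, 4 higher and 0 passed, with a median of -0.37. Pou2af1, the B cell coactivator of octamer-binding factors, had the smallest p there, with 653, 66.6 and 136 scaled counts in B6.Sle1b against 81.3, 84.3 and 68.3 in Sle1b.IFNγR-/-. Its groups overlapped, again through B6.Sle1b replicate 2.

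Markers of antibody-forming cells were highest in the same libraries as the kappa signal. Their 10 loci summed to 1272, 219 and 366 scaled counts in B6.Sle1b against 195, 198 and 212 in Sle1b.IFNγR-/-, without overlap, and all 6 tested members were lower, with a median log2 difference of -1.32 and 0 past the limma test. Creld2, a chaperone gene of the secretory pathway, had 83.6, 11.5 and 21.6 in B6.Sle1b against 6.12, 3.37 and 2.40 in Sle1b.IFNγR-/-. Igj, the joining chain of polymeric antibodies, had 377, 53.4 and 86.2 against 44.6, 52.8 and 40.7, and Prdm1, the factor that drives antibody-forming cell fate, 86.6, 59.2 and 64.7 against 35.0, 42.7 and 50.3. Derl3 was also lower without overlap. The other tested members, Xbp1 and Edem1, overlapped, with B6.Sle1b replicate 2 below every Sle1b.IFNγR-/- library. Xbp1 had 216, 18.1 and 67.5 in B6.Sle1b against 27.1, 25.8 and 26.4 in Sle1b.IFNγR-/-. Edem1 had 416, 51.0 and 96.6 against 73.5, 51.7 and 79.1. Tnfrsf17 was at 0 in every library. Pan-B cell genes summed to 1521, 636 and 958 in B6.Sle1b against 842, 839 and 916 in Sle1b.IFNγR-/-, which overlapped. Within B6.Sle1b the libraries rank alike in antibody-forming cell markers, Igkc and Igkv signal, and the same order (replicate 1, then 3, then 2) holds for the pan-B cell, T cell, erythroid and red pulp macrophage lists and the kappa promoter and enhancer factors. The part of these cells in the kappa shares was not tested.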

How the data were processed

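Spleen RNA of 6 libraries was compared, 3 B6.Sle1b against 3 Sle1b.IFNγR-/-. TRIzol extraction and the NuGEN Ovation V2 amplification kit were used, per the labels' protocols. The submitters' processing notes name TopHat2 2.0.9, Cufflinks 2.2.1, CASAVA and GRCm38, without the handling of fragments that map to several places. The deposited signal is a fragment count per locus that the authors scaled between libraries, per the file headers. Its 1530481 rows were collapsed to 426574 loci, and 24 other columns of per-sample values were not used. In each library 99.8% of positive values were whole multiples of 1 step, which gave fragments. For Igkv, 401 of 407 positive values were whole within 0.02 of a step. As the rest kept counts from full recovery, count tests were not used, and limma 3.58.1 (R 4.3.3) was fitted to log2(value + 1) with an intensity trend over the 19227 named loci whose mean reached 10, with Benjamini-Hochberg adjusted p under 0.05 as the threshold. Differences of low loci are understated on this scale. The fit and the concentration measures were tested on simulated data. Intervals and exact permutation tests came from scipy 1.17.1 under python 3.11.15 with numpy 2.4.6, pandas 2.3.3 and matplotlib 3.10.9.

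The members, the gene lists and the tests were chosen with earlier results of these data known. Segments named are the 12 of largest mean share, each library's leader and, as none passed, those of smallest p (5 lower, 3 higher). Families named have a mean share of at least 1%. Igkc, the Igkj and Iglv loci and up to 3 members of each list are named too. For antibody-forming cells every tested member is named. The labels give no batch. The gene annotation was GENCODE M21. Promoters and recombination signals of the segments were not analysed here.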

Additional observations from a re-analysis of the deposited data

How the results depend on the processing

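With each library left out in turn, the number of named loci past the limma test ran from 0 to 5 and that of Igkv loci from 0 to 1, the 1 being Igkv17-127 without B6.Sle1b replicate 2. The segments whose shares did not overlap numbered 1 to 12 and the families 2 to 5, against 4 and 2 with all libraries, in part because fewer libraries overlap less. Scaling to the total of named loci gave 1 named locus past the test and moved the median log2 difference of all tested loci from -0.08 to 0.06. With a mean of at least 50 only 2 Igkv segments remained and 0 of their shares did not overlap, so that this setting says little. With no filter on low values, 8 of 124 did not overlap. With families of a mean share of at least 5%, 0 did not overlap. That cut leaves out Igkv12 (mean share 3.51%) and Igkv15 (2.67%), the families that did not overlap in the main setting. The difference of group means (Sle1b.IFNγR-/- less B6.Sle1b) in effective number was -4.79, -8.68 over loci of annotated transcripts only and -12.5 for the number expected at equal depth. Igkv signal as a percentage of Igkc differed by 49.8 points, opposite in sign to its share of named values. The setting without assembled loci, the Igkc denominator and the unfiltered segment shares were chosen after seeing the data.

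The log2 difference changed sign for 6 named segments, and the cause was not tested. Without B6.Sle1b replicate 1 it was 0.16 for Igkv3-10, 0.24 for Igkv1-110, 0.05 for Igkv4-56 and 0.39 for Igkv1-122. Igkv1-122 was also 0.054, 0.063 and 0.12 under median-ratio, upper-quartile and total scaling, 0.0080 without B6.Sle1b replicate 2 and 0.20 and 0.30 without Sle1b.IFNγR-/- replicates 1 and 2. Igkv8-16 was -0.032 with a pseudocount of 10, -0.25 without B6.Sle1b replicate 2 or 3 and -0.08 without Sle1b.IFNγR-/- replicate 1. Igkv4-56 was 0.13 without Sle1b.IFNγR-/- replicate 3, and Igkv14-126 (the locus with an assembled transcript) was -0.12 without B6.Sle1b replicate 2. Over the libraries left out in turn, these differences ran from -2.25 to 0.16 for Igkv3-10, from -0.25 to 0.51 for Igkv8-16, from -1.52 to 0.24 for Igkv1-110, from -0.55 to 0.39 for Igkv1-122, from -1.18 to 0.13 for Igkv4-56 and from -0.12 to 0.23 for Igkv14-126. For shares of the named families and segments, the difference of group means moved by less than a pooled replicate SD under every setting tried. The exceptions were 8 that moved more without assembled loci. The sign of such a difference could still turn. For Igkv6-15 it was -0.69 points with all libraries and 0.97 without Sle1b.IFNγR-/- replicate 2. For the Igkv6 family it was -1.48 points and 0.80 without B6.Sle1b replicate 2.

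Replicate numbers did not pair the libraries: the correlations of same-numbered libraries' deviations lay between -0.03 and 0.01. With a replicate block 0 named loci and 0 Igkv loci passed, with 567 at an unadjusted p under 0.05. The planned edgeR and DESeq2 alternatives were not run, as counts could not be recovered in full. Outside B6.Sle1b replicate 1 many segments rest on a few fragments, although the leading ones rest on more.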

Other observations

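The lambda light chain, the other light-chain locus of the mouse, was read beside kappa. Its 3 variable loci, Iglv1, Iglv2 and Iglv3, summed to 156, 18.1 and 53.7 scaled counts in B6.Sle1b against 36.3, 39.3 and 28.1 in Sle1b.IFNγR-/-. They made up 4.53%, 4.14% and 7.85% of the variable light-chain signal in B6.Sle1b against 7.69%, 8.95% and 6.38% in Sle1b.IFNγR-/-, with overlapping groups. Iglv3 had 78.8, 13.2 and 37.8 scaled counts in B6.Sle1b against 15.3, 27.0 and 18.5 in Sle1b.IFNγR-/-, and Iglv1 65.2, 3.29 and 12.2 against 18.4, 8.99 and 7.19. Iglc1, a lambda constant gene, had 466, 12.3 and 141 against 54.2, 64.1 and 102. In Iglv3, Iglv1 and Iglc1, B6.Sle1b replicate 1 was highest and B6.Sle1b replicate 2 lowest. The pre-B cell genes that pair with the heavy chain before kappa is rearranged were low, with Vpreb1 at 26.5, 22.2 and 31.9 in B6.Sle1b against 17.5, 16.9 and 15.6 in Sle1b.IFNγR-/-, and 0 of 2 tested members of that list passed the limma test.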
